A study of Mus musculus with 2 samples.

Results

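Promoter peaks of genes without RNA were examined in the brain of a mouse embryo at E18.5. These are regions of open chromatin near the start of genes for which no transcript was counted in any barcode of the count matrix. Of 91223 peaks in the count matrix, 24452 on chromosomes 1 to 19 lay within 1 kb of the transcription start site (TSS) interval of a gene. A total of 513 of these 24452 promoter peaks, or 2.10%, were chosen by the rule that every such gene had 0 UMIs over all barcodes of the matrix. The other 23939 promoter peaks, with at least 1 gene that had UMIs, served for comparison, as did the 64812 autosomal peaks beyond 1 kb of any TSS interval. Because the UMI counts and the presence of a peak chose the members, neither is a finding here, and the cut sites, sequence and distribution over spots are described below without a test.

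The data came from SPARC-seq, an assay that gives each barcode both a transcript count and an accessibility count. The mouse was on a C57BL/6 background and carried a homozygous Ctcf mutation, given in the labels as CTCF-R567W and made by CRISPR/Cas9. One genotype was sampled, with 1 RNA library and 1 chromatin accessibility library and no replicates, so no effect of the mutation could be measured and intervals cover counting error alone. The 1993 barcodes of the matrix combine a pair of 8-base segments, 50 by 50 in all, and from this grid they are called spots, each with possibly more than 1 cell.

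The RNA library held 8726497 UMIs, with 907 to 15365 per spot. A gene with 0 UMIs may thus still have an expected count of up to 3.69 UMIs at this depth, the upper end of the exact Poisson 95% interval. For scale, 3 UMIs in this total are a CPM (counts in 1000000) of 0.344. The spots had 5759 to 115587 fragments each. The accessibility value of a peak is its number of cut sites, the positions where the transposase inserted, summed over the 1993 spots. Neuronal markers took 54576 UMIs, markers of epithelium, some of them of ciliated cells, 3095 and skeletal muscle markers 51567. By the muscle markers, the tissue labelled brain also held RNA from outside the brain. A gene without UMIs had none in any spot. Fewer cells of a type and less RNA per cell cannot be told apart in such spots.

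A promoter is the stretch of DNA around the start of a gene where the transcription machinery assembles, and transposase cuts it readily when nucleosomes are displaced. Most widely expressed genes start in CpG islands, which are rich in the dinucleotide CG and are usually accessible in many tissues. Promoters of genes used in a single cell type are more often poor in CG and closed elsewhere. Developmental regulators such as Hox genes are an exception, with CpG islands that can remain free of DNA methylation while the gene is silenced by Polycomb proteins.

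The sequences upstream of member genes ranged from rich to poor in CG. Among the member genes whose sequence could be shown, 206 had a single annotated start inside the peak, and 191 of these had no annotated exon in the 200 bases before it. The member with most cut sites among these 191 is shown for 5 gene families and for the predicted genes. Homeobox genes, keratins, antigen receptor segments, defensins and genes in no list were also among the 191 and are not shown. The bases were read from GRCm38 (mm10), end just before the start, and run 5′ to 3′ along the gene, with each CG dinucleotide in capitals.
Gm44066: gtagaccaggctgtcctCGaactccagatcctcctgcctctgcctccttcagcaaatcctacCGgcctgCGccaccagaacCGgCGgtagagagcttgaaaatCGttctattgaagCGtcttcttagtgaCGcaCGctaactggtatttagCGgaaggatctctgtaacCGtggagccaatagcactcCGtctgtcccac
Mc3r: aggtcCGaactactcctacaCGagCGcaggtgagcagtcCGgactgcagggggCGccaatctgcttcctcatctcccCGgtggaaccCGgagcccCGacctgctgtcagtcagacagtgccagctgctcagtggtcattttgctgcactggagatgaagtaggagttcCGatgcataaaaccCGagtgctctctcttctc
Rpl10l: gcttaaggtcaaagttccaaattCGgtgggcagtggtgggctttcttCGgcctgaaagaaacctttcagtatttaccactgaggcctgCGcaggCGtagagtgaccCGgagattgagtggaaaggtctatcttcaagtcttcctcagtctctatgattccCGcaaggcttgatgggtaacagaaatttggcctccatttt
Hist1h1t: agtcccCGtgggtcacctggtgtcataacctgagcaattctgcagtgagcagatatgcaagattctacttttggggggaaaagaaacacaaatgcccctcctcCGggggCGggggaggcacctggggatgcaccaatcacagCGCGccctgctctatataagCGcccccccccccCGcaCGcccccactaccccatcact
Cxcl3: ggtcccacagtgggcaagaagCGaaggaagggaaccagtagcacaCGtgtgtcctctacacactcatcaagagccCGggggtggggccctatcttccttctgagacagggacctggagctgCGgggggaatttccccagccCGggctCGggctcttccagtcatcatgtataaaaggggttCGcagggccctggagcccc
Olfr631: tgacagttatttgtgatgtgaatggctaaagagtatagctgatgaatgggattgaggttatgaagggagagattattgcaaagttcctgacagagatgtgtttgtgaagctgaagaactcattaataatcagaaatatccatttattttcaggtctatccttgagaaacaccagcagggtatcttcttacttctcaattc

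These stretches are chr6:128843172-128843371 (Gm44066, minus strand), chr2:172248292-172248491 (Mc3r, plus strand), chr12:66284402-66284601 (Rpl10l, minus strand), chr13:23695614-23695813 (Hist1h1t, plus strand), chr5:90785903-90786102 (Cxcl3, plus strand) and chr7:103928625-103928824 (Olfr631, plus strand). Gm44066 held 12 CG dinucleotides and an observed over expected CpG ratio of 0.83, whereas Olfr631, an odorant receptor gene, held 0. Between them lay Mc3r with 10, Hist1h1t with 8, Cxcl3 with 7 and Rpl10l with 6. Their CpG ratios were 0.59, 0.46, 0.37 and 0.51, so Gm44066 alone of those shown was above 0.6. Among the 6 motifs searched on both strands, the Hist1h1t stretch held GGGCGG and CCAAT. Cxcl3 held TATAAA and CACGTG, Gm44066 and Mc3r held CCAAT, and no searched motif matched in Rpl10l or Olfr631.

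Members were among the less open promoter peaks. They had a median of 106 cut sites, with quartiles of 74 and 160 and a range of 24 to 918, against a median of 209 in the other promoter peaks, a ratio of 0.507. The comparison depends on how wide the start interval of a gene is. Some genes have starts spread over up to 2857160 bases, and 10497 of the other promoter peaks lay near such intervals of over 2 kb alone, with a median of 121 cut sites. The 13442 other promoter peaks near an interval of at most 2 kb had a median of 336, and the ratio against these was 0.315. Peaks beyond 1 kb of any start had a median of 93. The median member thus had more cut sites than 59.8% of these remote peaks and more than 9.86% of the peaks at narrow starts, and 26 of the 513 members, or 5.07%, exceeded the median of the latter.

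**Figure D1:**
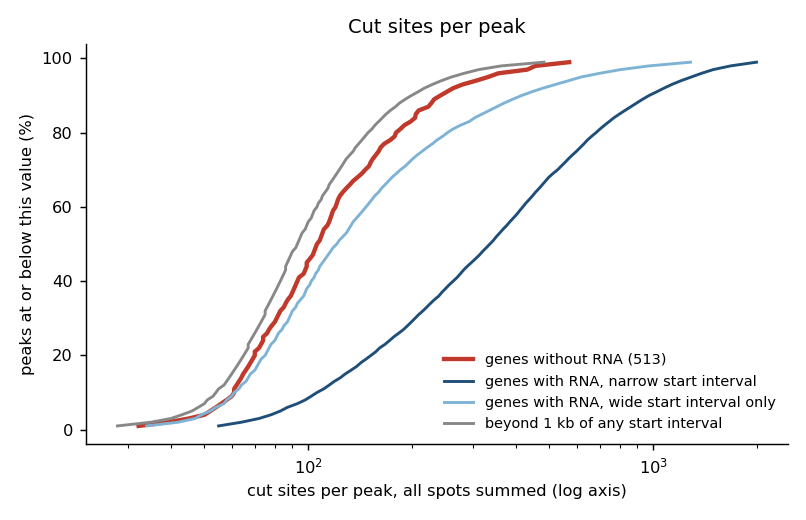
Cumulative share of peaks (vertical axis, %) by cut sites per peak summed over all spots (horizontal log axis), from the 1st to the 99th percentile, for members and 3 comparison classes. The curve of the 513 members runs between remote peaks (median 93) and peaks near wide start intervals (median 121), well left of peaks at narrow starts (median 336).

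Few members were cut in many spots. A member had a cut site in a median of 56 of the 1993 spots (13 to 432), while a promoter peak at a narrow start had one in 170. The same order was seen in the 507 barcodes that are in the fragment file and not in the matrix, with medians of 11 cut sites in members, 25 at narrow starts and 10 in remote peaks. Among peaks of like width (800 to 899 bases), the medians were 116 in 254 members, 375 in 6662 peaks at narrow starts and 96 in remote peaks.

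At narrow starts, peaks of genes with more RNA had more cut sites, up to 999 UMIs. For peaks near narrow intervals, the median was 109 cut sites with 0 UMIs (492 peaks), 112 with 1 UMI (296 peaks), 125.5 with 2 to 3 UMIs, 129 with 4 to 9, 165 with 10 to 29, 265 with 30 to 99 and 403 with 100 to 299. It was 457.5 with 300 to 999 UMIs and 426 with 1000 or more. Over all promoter peaks, wide intervals included, the median was 328.5 with 100 to 299 UMIs, 302 with 300 to 999 and 140 with 1000 or more (6232 peaks). Peaks just outside the UMI limit of the rule, whose genes had 1 UMI, thus had nearly the values of the members. At the limit of distance, 42 peaks lying 800 to 999 bases from the interval of a gene without UMIs had a median of 107 cut sites, and 39 peaks 1000 to 1199 bases away had a median of 85.

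**Figure D2:**
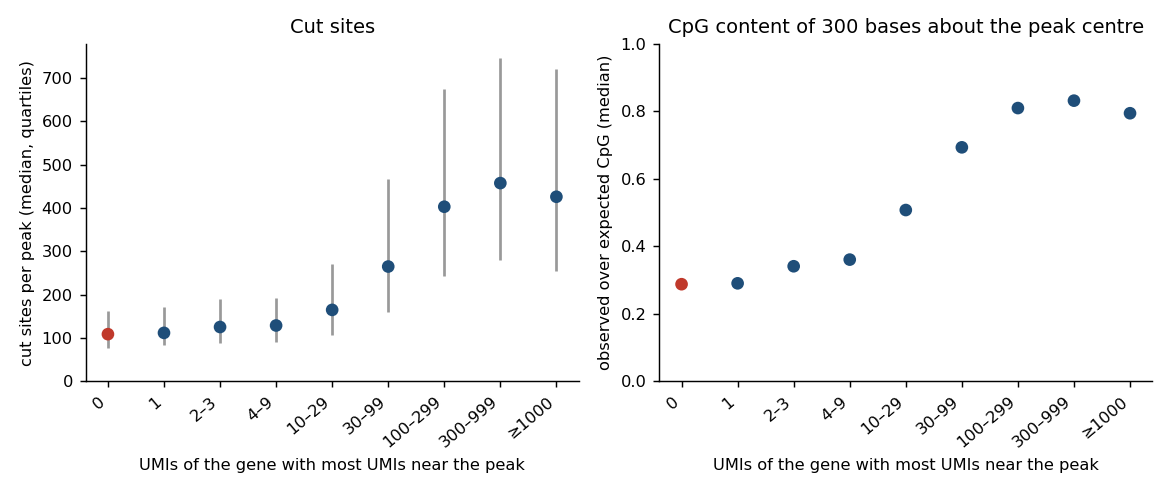
Cut sites per peak (left, median with quartiles as bars) and observed over expected CpG in 300 bases about the peak centre (right, median) for promoter peaks near a start interval of at most 2 kb, by the UMIs of the gene with most UMIs near the peak. Members (red, 0 UMIs, 109 cut sites) lie next to genes with 1 UMI (112), and both measures are higher from 10 UMIs upwards.

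Around gene starts, members still formed a peak of cutting. Over 105 named genes without RNA that had a member peak and a single start, 109 cut sites per kb and gene fell within 200 bases of the start, 2.60 times the density 1800 to 2000 bases away. For 330 predicted genes the density was 143 and the ratio 2.69. For 8014 genes with RNA and a promoter peak the density was 698 and the ratio 10.3. The 3282 genes without RNA and without a promoter peak had 38.4 cut sites per kb at the start, 1.17 times their flanks. As the presence of a peak chose the first 2 sets, the heights describe them and test nothing.

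**Figure D3:**
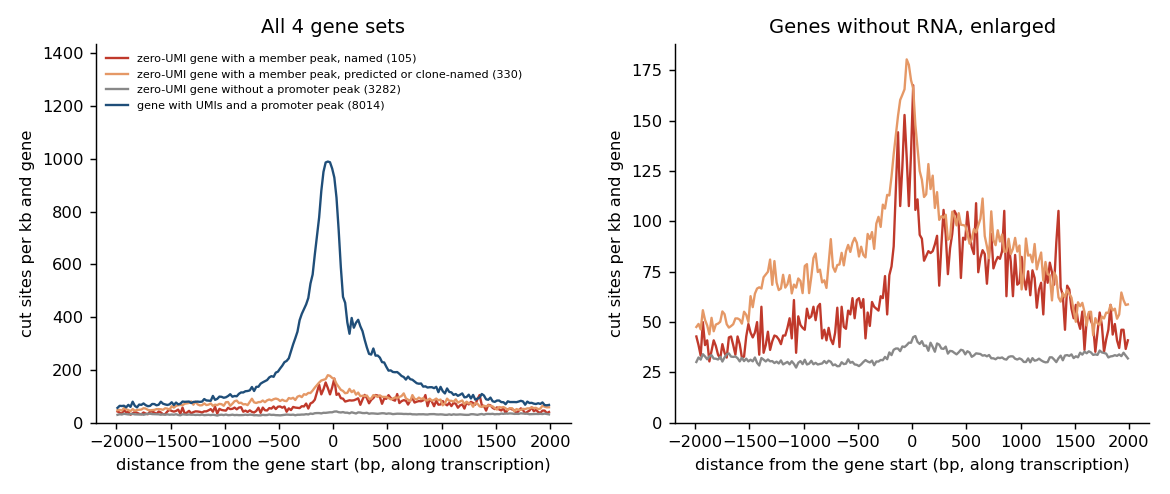
Cut sites per kb and gene in bins of 20 bases around single gene starts (horizontal axis, bases along the direction of transcription), for 4 gene sets at left and for the 3 sets without RNA enlarged at right. Genes with RNA reach 698 on average within 200 bases of the start, named and predicted genes without RNA with a member peak 109 and 143, and those without a promoter peak 38.4.

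In CpG and GC content, members lay near peaks of wide intervals and remote peaks, and below peaks at narrow starts. The median observed over expected CpG in 300 bases about the peak centre was 0.28 in members, 0.23 in remote peaks, 0.29 near wide intervals and 0.76 at narrow starts. GC content followed, at 51.7%, 49.7%, 51.7% and 63.0%. A ratio of at least 0.6 was found in 69 members, or 13.5%, against 67.9% of peaks at narrow starts. Those 69 members had a median of 155 cut sites and the remaining members 103. At narrow starts the matching medians were 441 and 157, so members had fewer cut sites at either CpG level. The motif GGGCGG, to which Sp family factors bind, was present in 14.4% of members, 58.8% of peaks at narrow starts, 22.2% near wide intervals and 8.43% of remote peaks. The motif CCGGAAG, a core of ETS factor sites, was present in 5.65%, 15.3%, 3.95% and 1.89%, and GCATGCGC, a form of the NRF1 site, in 0.195%, 4.38%, 1.41% and 0.742%. In the same order, CCAAT was at 30.2%, 35.4%, 31.0% and 31.2%, TATAAA at 6.43%, 4.75%, 8.86% and 10.7%, and CACGTG at 5.85%, 9.48%, 6.14% and 5.15%. Overlaps between motifs were not removed.

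By position, 260 members, or 50.7%, held an annotated start of some gene of GENCODE M21, against 83.6% of peaks at narrow starts. The centre lay in an exon in 152 members (29.6%, against 44.5% at narrow starts and 5.45% of remote peaks). It lay in an intron in 161 (31.4%, against 20.5% and 45.3%) and between genes in 200 (39.0%, against 35.0% and 49.2%). A gene with UMIs covered the centre of 109 members, or 21.2%, against 64.6% at narrow starts, 92.3% near wide intervals and 50.5% of remote peaks. The nearest annotated start of a gene with UMIs was a median of 20650 bases away, and 83 members (16.2%) had one within 5 kb. That share was 99.9%, 50.8% and 17.9% in the same order. The rule keeps members over 1 kb from start intervals of genes with UMIs, so such differences partly follow from it. These 83 had a median of 135 cut sites and the others 103. In 3 members, near Gm15736, Gm13449 and Gimap1os (Gm13449 and Gimap1os being named after their values were seen), an annotated start of a gene with UMIs fell inside the peak itself although the interval in the matrix did not reach it. Each chromosome held 6 to 45 of the members, and 82 of them lay within 10 kb of another member.

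Predicted and clone-named genes, which have no assigned function, made up 52.6% of the 4845 genes with 0 UMIs and 70.8% of the 493 with a member peak. A total of 371 of 513 member peaks, or 72.3% (exact interval 68.2% to 76.2%), were near predicted or clone-named genes alone. This share is not given for other promoter peaks. Among genes with UMIs and a promoter peak, 3174 of 16531 were predicted or clone-named. By biotype in GENCODE M21, the 493 genes of the members included 239 long intergenic non-coding RNAs, 142 protein-coding genes and 50 antisense RNAs. Put the other way, 493 of 4845 autosomal genes without UMIs, or 10.2%, had a member peak, a further 217 had a promoter peak that they share with a gene with UMIs, and 4135 had none. Of the 25519 genes with UMIs, 64.8% had a promoter peak. The share with a member peak was 17.0% of 1403 long intergenic non-coding genes and 6.46% of 2199 protein-coding genes.

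**Figure D4:**
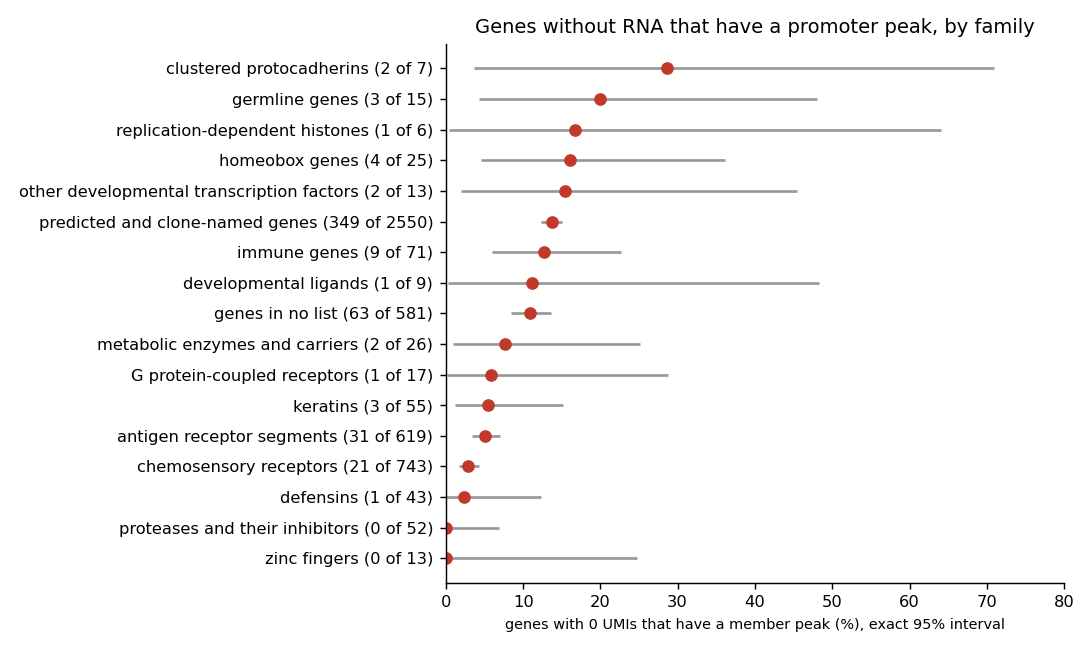
Share of genes with 0 UMIs that had a member peak (points, %) with its exact 95% interval (bars) for 16 gene lists and the genes in no list, with the numbers beside each name. Chemosensory receptors (2.83%) and antigen receptor segments (5.01%) have low shares beside predicted genes (13.7%), and lists of under 30 genes have wide intervals. Antigen receptor segments that share a peak are counted apart, so their interval is too narrow.

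The 10 members with most cut sites were mostly of this predicted kind. Gm44066, a long intergenic RNA gene on chromosome 6, led with 918 cut sites in 432 spots. It was followed by E130208F15Rik with 875, Gm49490 with 854, Gm41545 with 612, Exosc6 with 610, Gm43177 with 572, Gm15736 with 560, Gm28872 with 524, Trex1 with 490 and Gm47061 with 472. Apart from Gm41545, Gm15736 and Trex1, their observed over expected CpG ratios ran from 0.79 to 1.12. Several sat beside expressed genes: the E130208F15Rik peak lay 1.08 kb from a start of Sdhaf1 (65 UMIs), the Gm49490 peak 0.319 kb from one of C1qtnf6 (124 UMIs), and the Gm47061 peak in an intron of Tfap2a. The Gm15736 peak held an annotated start of Cmklr1 (31 UMIs), and the Trex1 peak lay 0.39 kb from one of Atrip (197 UMIs). Whether such a peak belongs to the neighbour was not tested.

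Some genes without UMIs share exons with another gene on the same strand, and a read that fits both may be counted for neither. This held for 9 of the member genes. Exosc6, a subunit of the RNA exosome, overlaps Aars (618 UMIs), and its peak at chr8:111055882-111056740 had 610 cut sites and a CpG ratio of 1.12. Trex1, a DNA exonuclease, overlaps Atrip (197 UMIs) and had 490 cut sites in the peak at chr9:109059122-109059948. C1qtnf5, named after its values were seen, overlaps Mfrp (10 UMIs) and had 361 cut sites, and Hoxc10 overlaps Hoxc5 (15 UMIs). The part of these overlaps in the count of 0 was not tested. A further 46 member genes overlap exons of a gene on the opposite strand.

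Of 189 homeobox genes, 25, or 13.2%, had 0 UMIs, against 15.96% of all genes. Of these 25, 4 had a member peak, or 16% (exact interval 4.54% to 36.1%), a range that holds the 10.2% of all genes with 0 UMIs. They made up 0.78% of members (exact interval 0.213% to 1.98%), a share not given for other promoter peaks. Among genes with UMIs and a promoter peak, 85 of 16531 were homeobox genes. Hoxc10, a posterior Hox gene, had 326 cut sites in 158 spots, and an annotated start of Hoxc5 (15 UMIs) lies within 1 kb of its peak. With the starts of annotated transcripts in place of the intervals, the homeobox share of members was 0.587%. Hoxd13 and Hoxa13, which pattern digits and the genital region, had 109 and 78 cut sites in 54 and 44 spots. Nanog, a pluripotency factor named after its values were seen, had 69 cut sites 579 bases from the nearest annotated start. The CpG ratios of the 3 Hox peaks were 0.86, 1.06 and 1.03, and that of the Nanog peak 0.39. Hoxb13 and Hoxc13 had 1 UMI each and no promoter peak. Of 13 other developmental transcription factors without UMIs, 2, or 15.4% (1.92% to 45.4%), had a member peak: Atoh1, which specifies cerebellar granule cells and hair cells, with 103 cut sites, and Foxi3, a factor of ectodermal placodes, with 89. Nodal, the left-right signalling ligand, had 124 cut sites and was the sole member among 9 developmental ligands without UMIs, or 11.1% (0.281% to 48.2%). Both intervals hold the 10.2% of all genes. The Atoh1 and Nodal peaks lay 417 and 144 bases from the nearest annotated start, and the Foxi3 peak held one.

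Germline genes gave 3 of 15 without UMIs, or 20% (exact interval 4.33% to 48.1%), which holds the 10.2% of all genes. Dazl, an RNA-binding protein of germ cells, had 260 cut sites in 119 spots at chr17:50292240-50293289, with an annotated start inside the peak and a CpG ratio of 0.81. Rpl10l, a testis copy of a ribosomal protein gene, had 64 and Ccer1 had 60. Rpl10l also had 24 cut sites in the barcodes outside the matrix, above the member median of 11. Reads that fit a retrocopy and its parent gene equally well can be lost to both, which was not tested here. Of 6 replication-dependent histone genes without UMIs, 1, or 16.7% (0.421% to 64.1%), had a member peak, Hist1h1t, the testis linker histone, with 52 cut sites; 59 of 62 such genes with UMIs had a promoter peak.

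Immune genes gave 9 of 71 without UMIs, or 12.7% (exact interval 5.96% to 22.7%), near the 10.2% of all genes. Cxcl1 had 209 cut sites, Cxcl3 179 and Il17c, an epithelial cytokine, 140. Cxcl1, Cxcl3, Cxcl5 (116), Cxcl2 (87) and Ppbp (63) are neutrophil-attracting chemokines that lie within 144 kb on chromosome 5. Each had 0 UMIs and a member peak, while their neighbours Pf4 (255 UMIs) and Cxcl15 (1 UMI) had no promoter peak. This group was picked after its values were seen. Il6, the fever and inflammation cytokine, had 128 cut sites, with an annotated start in the peak, and the receptor Il27ra had 123. Ccl3, a macrophage chemokine, and Il1rn, the antagonist of interleukin 1, had 62 and 66. These last 4 were also chosen after their values were seen.

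Genes of sensory and lymphoid families had low shares with a member peak beside the 10.2% of all genes without UMIs. Of all genes without UMIs, 52.6% were predicted or clone-named, and the protein-coding ones had a share of 6.46%. Of 743 chemosensory receptor genes without UMIs, 21, or 2.83% (exact interval 1.76% to 4.29%), had a member peak, and their 24 peaks had a median of 67.5 cut sites and a median CpG ratio of 0.13. Olfr140 had 204 cut sites, Olfr224 95 and Olfr677 92. The Olfr140 and Olfr677 peaks lay 389 and 137 bases from the nearest annotated start. Of 619 antigen receptor segments without UMIs, 31, or 5.01% (3.43% to 7.03%), had one, with a median of 71.5 cut sites. These 31 had 22 member peaks among them, so the segments are not independent and the interval is too narrow. The highest were a peak within 1 kb of Trbj2-5 to Trbj2-7 and one within 1 kb of Trdc, 569 and 734 bases from the nearest annotated start, with 117 cut sites each. A peak that holds starts of Trbj2 segments and lies within 1 kb of 8 segments from Trbd2 to Trbj2-7 had 114. Among keratins and keratin-associated proteins of hair, Krtap16-1 had 298 cut sites, Krtap3-3 54 and Krtap24-1 49, which made 3 of 55 genes without UMIs, or 5.45% (1.14% to 15.1%). Defb26, a beta-defensin, had 42 and was 1 of 43 defensins, or 2.33% (0.0589% to 12.3%). The last 2 intervals hold the 10.2% of all genes. They and the antigen receptor interval also hold the 6.46% of protein-coding genes, while the chemosensory interval lies below it. The Krtap16-1 peak lay 274 bases from the nearest annotated start.

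Of the listed G protein-coupled receptors 9.50% had 0 UMIs, and of the metabolic enzymes and carriers 4.21%, against 15.96% of all genes. Mc3r, the melanocortin 3 receptor of hypothalamic neurons, had 148 cut sites with its start inside the peak and was the sole member of 17 listed G protein-coupled receptors without UMIs, or 5.88% (0.149% to 28.7%). A further 3 peptide receptors of the brain, chosen after their values were seen, were members: Prlhr with 177, Npbwr1 with 153 and Ghsr, the ghrelin receptor, with 151 and 72 in 2 peaks. The Npbwr1 peak held an annotated start, while that of Prlhr and the larger of Ghsr lay 483 and 523 bases from the nearest. All 3 are G protein-coupled receptors that the name list leaves out, so the 5.88% covers the listed genes alone. Gstp3, a glutathione transferase, had 81 and Adh6a, an alcohol dehydrogenase, 76, which made 2 of 26 metabolic genes without UMIs, or 7.69% (0.946% to 25.1%). None of 236 ion channel genes lacked UMIs, and none of 13 zinc finger genes without UMIs had a member peak, which allows up to 24.7% (exact interval) and so holds the 10.2% of all genes with 0 UMIs. None of 52 protease and inhibitor genes without UMIs had one, which allows up to 6.85% and so holds the 6.46% of protein-coding genes. Pcdhb1 and Pcdhb8, clustered protocadherins that give neurons their surface identity, had 98 and 63 cut sites and were 2 of the 7 genes of that class without UMIs, or 28.6% (exact interval 3.67% to 71.0%), which holds the 10.2% of all genes.

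Over spots, the members' share of promoter cutting varied little beyond counting error. They held 70624 of 8604158 promoter cut sites, or 0.821%. Counted as fragments, so that the 2 ends of a fragment are not counted apart, the share per spot had a median of 0.831%, with 10% of spots below 0.588% and 10% above 1.13%. Its SD over the 1993 spots was 0.218 percentage points, and counting error alone gives 0.214. Spots had a median of 17 member fragments (1 to 100), which limits what could be seen. Summed over spots that share their first barcode segment, the 50 shares ran from 0.750% to 0.914%, with an SD of 0.0412 against 0.0314 from counting. For the 44 second segments with at least 20000 promoter fragments, they ran from 0.748% to 0.899%, with an SD of 0.0391 against 0.0314. Over all 48 second segments, they ran from 0.748% to 1.05%, with an SD of 0.0501 against 0.0526.

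**Figure D5:**
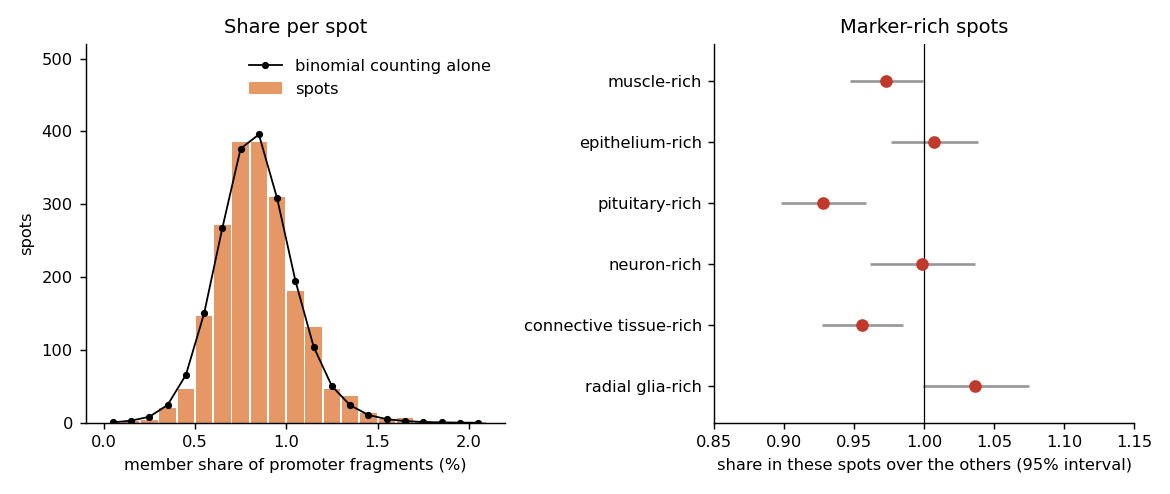
Left, number of spots by the members' share of promoter fragments (bars, %), with the number that binomial counting alone would give (black line). Right, that share in the 199 spots richest in each marker list over the share in the other spots (points, 95% interval from counts); all 6 ratios lie between 0.927 and 1.04.

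The share was also compared between the 199 spots with the highest share of UMIs on a list of 12 marker genes and the other 1794 spots. The rich spots had 3.58 times the marker share of the others for muscle, 7.06 for epithelium, 11.7 for pituitary and 1.56 for neurons. The spots were ranked on these same UMIs, so the folds are high by construction and do not measure how distinct the groups are. The lists held 51567 UMIs for muscle, 3095 for epithelium, 2250 for pituitary and 54576 for neurons. Pomc gave 850 of the pituitary UMIs, and the pituitary list took 0.153% of UMIs in its rich spots. Whether these spots hold pituitary cells was not tested. In muscle-rich spots, members held 0.806% of promoter cut sites against 0.824% elsewhere, a ratio of 0.978 (0.959 to 0.997). In pituitary-rich spots the ratio was 0.927 (0.905 to 0.9499), in epithelium-rich spots 1.01 (0.984 to 1.03) and in neuron-rich spots 0.996 (0.968 to 1.02). Intervals from cut sites take the 2 ends of a fragment as separate counts and are too narrow. In fragments the ratios were 0.973 (0.947 to 0.9988) for muscle and 0.927 (0.898 to 0.958) for pituitary. They were 1.01 (0.976 to 1.04) for epithelium and 0.998 (0.961 to 1.04) for neurons. The muscle-rich spots had a median of 38037 fragments against 20902.5 in the others, and the neuron-rich spots 19016 against 22006.5. The pituitary-rich spots had a median of 3132 UMIs against 4295.5. The part of depth in these ratios was not tested. The muscle ratio was 1.03 (1.01 to 1.05) per fragment of the spot, the opposite side of 1. For pituitary and epithelium, no ratio per fragment of the spot is given. The 4 groups overlap, with 66 spots in both the muscle-rich and the epithelium-rich group.

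Single members were at least 2-fold higher per promoter cut site in muscle-rich spots in 30 of 493 with at least 50 cut sites, or 6.09%, against 5.46% of all promoter peaks. The count was 30 in epithelium-rich spots (6.09%, against 3.69% of all promoter peaks), 13 in pituitary-rich spots (2.64%, against 1.65%) and 25 in neuron-rich spots (5.07%, against 3.11%). Members at least 2-fold lower were more numerous, as were other promoter peaks. They were 75 in muscle-rich spots (15.2%, against 11.3% of all promoter peaks), 66 in epithelium-rich spots (13.4%, against 8.38%), 74 in pituitary-rich spots (15.0%, against 7.52%) and 88 in neuron-rich spots (17.8%, against 9.99%).

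The minimum of 50 cut sites counts the rich spots too, so some members pass it through the spots where they are high. With the minimum applied to the other spots alone, 22 of 450 members (4.89%) were at least 2-fold higher in muscle-rich spots, against 5.04% of all promoter peaks, and 74 (16.4%) at least 2-fold lower, against 11.5%. In epithelium-rich spots 23 of 476 (4.83%) were higher, against 3.28%, and 66 (13.9%) lower, against 8.43%. In pituitary-rich spots 10 of 476 (2.10%) were higher, against 1.41%, and 72 (15.1%) lower, against 7.57%. In neuron-rich spots 24 of 483 (4.97%) were higher, against 2.86%, and 86 (17.8%) lower, against 9.99%.

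As members have fewer cut sites than other promoter peaks, the shares were also taken in 4 classes of cut sites outside the rich spots. Over the 16 classes of the 4 comparisons, the members' share at least 2-fold higher was above that of other promoter peaks in 4, and the share at least 2-fold lower was above it in 11. With 50 to 99 cut sites, the shares at least 2-fold lower were 12.0% in members and 16.1% in others for muscle, 15.5% and 15.6% for epithelium, 14.9% and 17.2% for pituitary and 22.2% and 18.3% for neurons. With 100 to 199 they were 23.4% and 15.1%, 14.6% and 10.9%, 16.5% and 9.36%, and 16.3% and 14.4%. The classes of 200 to 299 and 300 to 999 cut sites hold 21 to 40 members each. Members can still have lower counts than other peaks within a class, and the part of this in the differences was not tested.

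The members with the highest ratios are given as a description, since they were picked for this value. Gm4791, Gstp3, Gm15324, Gm15325 and Ccer1 had 40, 47, 47, 40 and 45 cut sites outside the rich spots. They thus reached the minimum of 50 only through the spots where they are high. Gm47730 on chromosome 13 had 101 cut sites in the 199 muscle-rich spots and 130 in all others, a ratio of 3.63. In fragments its ratio was 3.50 (2.41 to 5.07). Gm47730 was also among the 5 highest in pituitary-rich spots, at 2.37. Gm4791 reached 3.86 from 33 and 40 cut sites, Gm8883 3.77 from 54 and 67, Gstp3 3.38 from 34 and 47 and Gm36913 3.24 from 54 and 78. In epithelium-rich spots, Gm49725 reached 4.81 from 48 and 74 cut sites, Gm15324 3.47, Gm15325 3.33, Il17c 3.07 from 41 and 99 and Gm9951 2.96. Gm15324 and Gm15325 are neighbours on chromosome 13. In pituitary-rich spots, C78283 reached 2.63, Ccer1 2.59, Gm49805 2.53 and Pcdhb1 2.52. In neuron-rich spots, Gm11587 reached 3.02 from 15 and 59 cut sites, Gm48256 2.97, Olfr224 2.77, the peak of Traj52 and Traj51 2.76 and Olfr677 2.69. The ratios of the neuron-rich spots rest on 14 to 18 cut sites each, or 7 to 10 fragments. In fragments, Ccer1 had a ratio of 2.39 from 8 and 26, with an interval of 0.935 to 5.44 that holds 1. For C78283 and Gm48256 the fragment intervals were 1.04 to 5.44 and 1.06 to 6.67.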

How the data were processed

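SPARC-seq data of 1 RNA library and 1 chromatin accessibility library from E18.5 brain were used. Per the file headers, the authors ran cellranger-arc 2.0.1 with its 2020-A mm10 reference; the submitters' processing notes name Seurat 4.0 in no stated role. The deposited matrix holds raw counts, UMIs per gene and cut sites per peak, over 1993 barcodes, and the deposited fragment file gives a count of read pairs per fragment. How these barcodes and peaks were chosen is not given in the sources used here. Cut sites recounted from the fragment file equalled the matrix in 78.7% of peaks, with a total 100.1% of it.

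Start intervals came from the matrix, strands, biotypes, exons and transcript starts from GENCODE M21, and bases from GRCm38. Python 3.11.15, numpy 2.4.6, scipy 1.17.1 and pandas 2.3.3 were used. Intervals are exact Poisson, Clopper-Pearson or conditional binomial at 95%. Expected CpG was the product of C and G counts over length. Named genes were the 10 members with most cut sites, up to 3 per family, up to 5 per spot comparison with at least 50 cut sites, and those with a sequence shown; others are marked in the text. With 1 library per assay there was no test between groups. Members and lists were chosen with earlier results of these data known. The interval join and ratio intervals were tested on simulated data. Alternatives covered distance, start annotation, UMI limit, gene lists, counting unit, spot depth and spot share.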

Additional observations from a re-analysis of the deposited data

Results flagged for a closer look

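Data outside the autosomes held the same kind of peak. On chromosome X, which the rule leaves out, 7 promoter peaks lay near genes with 0 UMIs alone (named after their values were seen), with 601 cut sites in all, a sum above 0 by construction since called peaks hold cut sites. They were near Gm15201 (175 cut sites), Kis2 (116), Mycs (97), 4930570D08Rik (65 and 51 in 2 peaks), H2afb2 (53) and Ssxa1 (44). Their median of 65 was below the 106 of the autosomal members. No further value was singled out, as groups of samples to compare were lacking.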

How the results depend on the processing

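Of 72 alternatives to 18 results, 57 stayed within 1.5 times the main count or within the counting interval. The number of members was 1103 with at most 2 UMIs per gene and 145 without predicted and clone-named genes, where the homeobox share became 2.76%. The openness ratio of 0.507 became 0.385 with the starts of annotated transcripts, 0.385 without predicted genes, 0.6 from fragments of barcodes outside the matrix and 0.315 against peaks at narrow starts. The CpG ratio of 0.515 became 0.417, 0.445 and 0.376 with transcript starts, without predicted genes and against narrow starts. The muscle ratio changed side, to 1.0002 with at most 2 UMIs and 1.03 per fragment. The neuron ratio became 0.947 without predicted genes and 0.960 per fragment. The spread of the member share over spots, over that from counting, was 1.41 in cut sites and 1.02 in fragments. The comparison with narrow starts, the removal of genes with same-strand exon overlap, fragments in peaks and the minimum outside rich spots were chosen after seeing the data. The cause of these shifts was not tested. No paired analysis was possible because each assay has a single library. Depth limits single spots, with a median of 17 member fragments each.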

Other observations

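The core CTCF consensus was searched over whole peaks on both strands, as the mutation lies in Ctcf (737 UMIs). It matched in 20 members, or 3.90%, against 1.53% of promoter peaks at narrow starts, 1.72% near wide intervals and 2.67% of remote peaks. No interval was computed for this share, and whether it departs from the others beyond counting error was not tested. The members with a match ranged from 76 to 385 cut sites and, named after their values were seen, included 2900072N19Rik (385), Gm27255 (296), Gm16155 (280), Gimap3, an immune-associated GTPase (94), and Crh, the corticotropin-releasing hormone (85). A match is a description of letters and not a bound site.

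Connective tissue and radial glia markers gave ratios of the member share of 0.963 (0.942 to 0.985) and 1.04 (1.02 to 1.07) in cut sites. In fragments these were 0.956 (0.927 to 0.985) and 1.04 (0.999 to 1.07). The connective tissue and radial glia groups had a median of 3690 and 3102 UMIs per spot against 4217 and 4256 elsewhere.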
